A study of Mus musculus with 6 samples.

Results

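The sarcomere genes described here are 10 that encode the cardiac myosin chains and the proteins that bind or phosphorylate them. They were taken by symbol from the 43629 genes of the count data, and all 10 were found. They are the heavy chains *Myh6*, *Myh7* and *Myh7b*, the ventricular light chains *Myl2* and *Myl3*, the atrial light chains *Myl4* and *Myl7*, the myosin-binding protein *Mybpc3*, and the light chain kinases *Mylk3* and *Mylk4*. Of these, 9 passed the filter on low counts that left 13092 genes for testing, and *Myl7* did not.

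Cardiac muscle contracts when myosin heads on the thick filament pull on actin. Each myosin molecule pairs its heavy chains, which carry the motor, with essential and regulatory light chains at the neck of the head. The adult mouse ventricle makes mainly the fast alpha heavy chain from *Myh6*, while the slower beta heavy chain from *Myh7* belongs to the fetal ventricle and returns in many stressed or failing hearts. Phosphorylation of the regulatory light chain and of myosin-binding protein C tunes how readily the heads engage.

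The RNA came from left ventricles of 6 male CD-1 mice, an outbred strain, at 1 year of age. The dams had received daily intraperitoneal injections, normal saline as vehicle for 3 of the mice and 20 mg/kg caffeine for the other 3, so the mice themselves were exposed only *in utero*. The exposure began at E6.5 and ended at E9.5 by one field of the labels and at E10.5 by another. The litter of each mouse is not given, so littermates cannot be told apart from independent hearts and the p-values measure the spread between these 6 samples. Poly(A) RNA was sequenced in a single run. The tissue holds many cell types, and in bulk RNA fewer cells of a type and less RNA per cell cannot be told apart.

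The raw counts totalled 9228359 to 10483101 in the vehicle hearts and 7613011 to 9153997 in the caffeine-treated hearts, with no overlap between the groups. A count of 3, taken as the lowest usable level, equalled 0.286 to 0.394 CPM (counts scaled to a common library size). CPM values below are scaled by TMM factors, which correct library sizes for composition. Differences are log2 fold changes of caffeine over vehicle from edgeR's quasi-likelihood F test with Benjamini-Hochberg adjustment over all 13092 genes, and a gene was called at an adjusted p below 0.05 with a fold change above 1.5. That call was met by 14 genes, or 0.107% of those tested, 11 of them higher after caffeine (0.084%) and 3 lower (0.0229%). Counts of genes whose groups do not overlap are given beside the 14.2% of all tested genes for which this held, and counts at an unadjusted p below 0.05 beside 8.82%.

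The labelled tissue was checked against cell type markers. The 7 ventricular cardiomyocyte markers, led by the actin gene *Actc1*, summed to 34195 to 37267 CPM in vehicle hearts and 35862 to 37076 CPM in caffeine-treated hearts. The atrial markers *Sln*, *Mybphl* and *Bmp10* had at most 3 counts in any heart. The atrial list of 7 genes nevertheless summed to 145 to 261 CPM in vehicle and 339 to 515 CPM in caffeine-treated hearts. The natriuretic peptide gene *Nppa* stood at 51.2 to 180 CPM in vehicle and 266 to 432 CPM in caffeine-treated hearts. Nearly all of the rest came from *Nr2f2*, *Kcnj3* and *Kcna5*, which lay between 11.6 and 51.4 CPM. *Kcnj3* was lower in every caffeine-treated heart than in any vehicle heart, and the groups of *Nr2f2* and *Kcna5* overlapped. The 8 fast skeletal muscle markers summed to 1.61 to 3.03 CPM against 0.140 to 0.789 CPM, with *Tnni2* the highest of them. Summed levels of the 5 fibroblast markers, led by *Dcn*, were higher after caffeine, at 821 to 966 CPM against 674 to 778 CPM, and those of the 7 conduction system markers, led by *Irx3*, were lower, at 69.8 to 85.1 CPM against 100 to 115 CPM. Within the conduction system list the widest differences were those of *Cntn2* and *Hcn4*. *Cntn2*, a cell adhesion gene of the Purkinje network, was at 3.90, 7.27 and 13.4 CPM in vehicle hearts and 0.419, 1.24 and 1.05 CPM in caffeine-treated hearts, a log2 fold change of -3.12 (SE 0.506, adjusted p = 0.0584). *Hcn4*, a pacemaker channel gene, was at 15.5, 15.9 and 9.81 CPM against 7.41, 6.08 and 5.50 CPM, a log2 fold change of -1.12 (SE 0.212, adjusted p = 0.102). Summed levels of the smooth muscle, endothelial, immune and adipocyte lists, led by *Smtn*, *Cdh5*, *Lyz2* and *Fabp4*, overlapped between the groups. Within the immune list all 4 tested estimates were above 0. Of these, *Adgre1* was at 4.97, 3.87 and 3.94 CPM in vehicle hearts and 9.22, 5.75 and 9.60 CPM in caffeine-treated hearts. Its log2 fold change was 0.93 (SE 0.235, adjusted p = 0.226). The adipocyte sum was nearly all *Fabp4*, as *Adipoq*, *Plin1* and *Cidec* had at most 11 counts in any heart. No marker of any list was called. The part of the fibroblast, conduction system and *Adgre1* differences in the values below was not tested.

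*Myh7* was higher and the *Myh6* to *Myh7* ratio was lower in every caffeine-treated heart than in any vehicle heart, while the ventricular light chains and *Mybpc3* had overlapping groups and estimates near 0. Both kinase genes had lower means after caffeine, *Mylk4* with the greatest difference of the 9 and *Mylk3* with no overlap between the groups. None of the 9 tested genes was called, against 0.107% of all genes tested. None was called by edgeR's exact test (0.726% of all genes), its likelihood ratio test (0.771%), DESeq2 (0.512%) or with a replicate block (0.306%), and with no filter on low counts 1 was (1.07%). An unadjusted p below 0.05 was reached by 3 of the 9, against 8.82% of all genes tested, with *Myh7* higher and *Mylk3* and *Mylk4* lower. Groups did not overlap for 2 of the 9, *Myh7* and *Mylk3*, against 14.2% of all genes tested. No test of these counts was made.

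**Figure D1:**
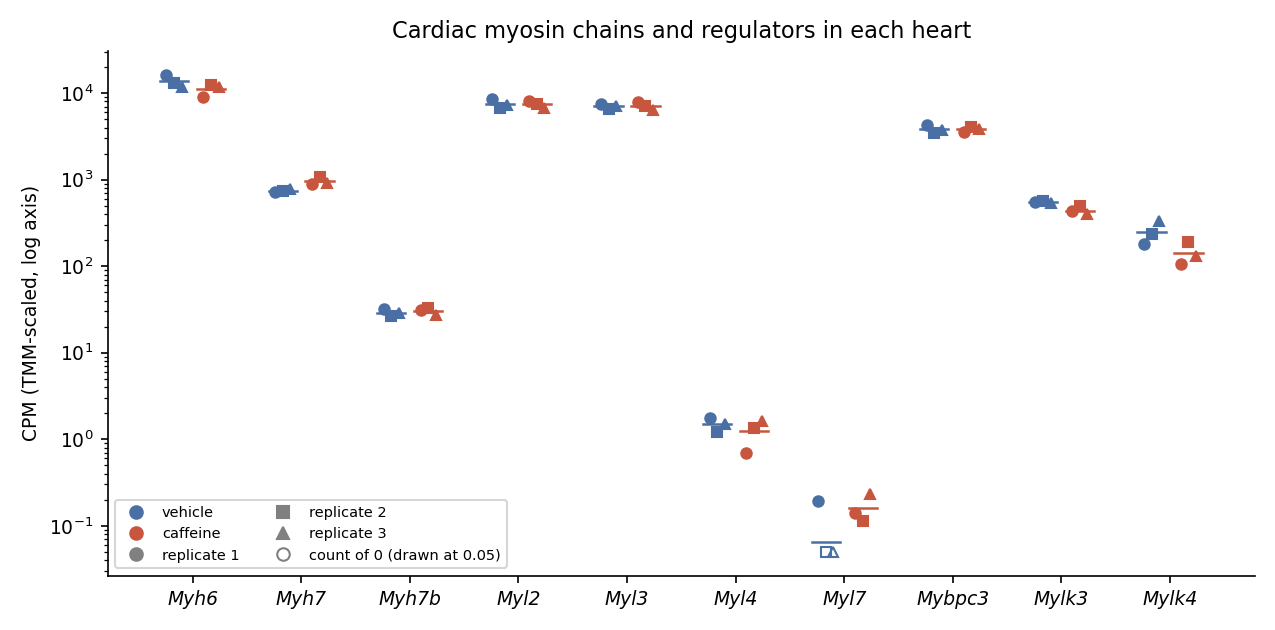
Levels of the 10 cardiac myosin genes in each heart, as TMM-scaled CPM on a log axis, with vehicle in blue, caffeine in red, a symbol shape for each replicate and a line at each group mean. The levels run from 9005 to 16359 CPM for *Myh6* down to counts of 0 for *Myl7*, drawn as open symbols at the bottom, and the groups are apart only for *Myh7* and *Mylk3*.

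The mouse genes of the alpha and beta heavy chains lie next to each other on the minus strand of chromosome 14 (GRCm38). *Myh7* (ENSMUSG00000053093) spans chr14:54970684-54994626 and *Myh6* (ENSMUSG00000040752) spans chr14:54941921-54966927. The promoters are shown because these are the genes whose balance differed between the groups. The 250 bases upstream of the RefSeq transcription starts (GRCm38.p6) are given 5′ to 3′ on the gene's strand, with the letters of the MCAT motif bound by TEAD factors in capitals. The *Myh6* window is chr14:54966608-54966857, which falls inside the span above because GENCODE places the start of that gene farther upstream, and that of *Myh7* is chr14:54994627-54994876.
Myh6: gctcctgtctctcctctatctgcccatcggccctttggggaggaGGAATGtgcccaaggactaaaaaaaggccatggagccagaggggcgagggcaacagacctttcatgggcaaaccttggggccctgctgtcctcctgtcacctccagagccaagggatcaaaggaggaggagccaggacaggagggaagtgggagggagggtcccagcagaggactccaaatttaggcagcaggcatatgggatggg
Myh7: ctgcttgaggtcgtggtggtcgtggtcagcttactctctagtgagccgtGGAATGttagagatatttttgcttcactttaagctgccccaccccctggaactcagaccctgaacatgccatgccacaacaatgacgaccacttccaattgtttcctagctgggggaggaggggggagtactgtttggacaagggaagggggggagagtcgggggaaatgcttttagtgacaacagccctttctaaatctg

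Both windows hold the letters GGAATG on the gene's own strand, from -206 to -201 in *Myh6* and from -201 to -196 in *Myh7*, counted from the transcription start. The motif was searched as GGAATG or its reverse complement CATTCC, and 12.6% of 32817 promoter windows of the same length hold it. The window of a second RefSeq start of *Myh7*, at position 54994549, does not. Neither AGGTCA, the core bound by thyroid hormone and related receptors, nor TATAAA was found in these windows on either strand, against 14.0% and 12.4% of all windows. Only these exact letters were searched, so sites with variant letters would be missed. The result does not show that the windows lack a receptor site. Among the other members the MCAT letters were found before *Myl3*, *Myl7* and 1 start of *Mylk3*, and AGGTCA before *Myh7b*, 1 start of *Myl2* and *Mylk4*. The RefSeq starts of *Myl2*, at positions 122092724 and 122093189, lie upstream of its GENCODE span, which begins at 122100951. The window before that GENCODE start was not searched. These matches describe the letters only.

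*Myh6* encodes the alpha heavy chain and was the most abundant of the 10 genes in CPM. Its level was 16359, 12984 and 11918 CPM in vehicle hearts 1 to 3 and 9005, 12527 and 11795 CPM in caffeine-treated hearts 1 to 3. Vehicle heart 1 was the highest and caffeine-treated heart 1 the lowest, and the other 4 hearts lay between 11795 and 12984 CPM, so the groups overlapped. The log2 fold change was -0.31 (SE 0.149, 95% interval -0.64 to 0.02, adjusted p = 0.599). The estimate came largely from the extreme hearts. It was -0.16 without vehicle heart 1 and -0.18 without caffeine-treated heart 1.

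*Myh7* encodes the beta heavy chain. It stood at 722, 731 and 783 CPM in vehicle hearts and at 881, 1060 and 925 CPM in caffeine-treated hearts. Every caffeine-treated heart was above every vehicle heart, and the vehicle hearts were close together, with a coefficient of variation of 4.46%. Its log2 fold change was 0.36 (SE 0.0927, 95% interval 0.15 to 0.56), a 1.28-fold difference with an interval of 1.11 to 1.48. The adjusted p was 0.246, so *Myh7* was not called. Leaving out any heart gave log2 fold changes of 0.28 to 0.41.

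*Myh7b* (ENSMUSG00000074652, chr2:155611212-155634307) encodes a related slow heavy chain whose gene hosts a microRNA. Its level was 31.9, 26.3 and 28.8 CPM in vehicle hearts and 31.2, 32.8 and 27.4 CPM in caffeine-treated hearts, which overlapped. Caffeine over vehicle was 0.07 on the log2 scale (SE 0.118, 95% interval -0.19 to 0.33, adjusted p = 0.917).

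The ratio of *Myh6* to *Myh7* needs no scaling between libraries because both counts come from the same heart. It was 22.7, 17.8 and 15.2 in vehicle hearts, with a mean of 18.5 ± 3.79 (SD, n = 3). In caffeine-treated hearts it was 10.2, 11.8 and 12.8, with a mean of 11.6 ± 1.28 (SD, n = 3). All caffeine-treated hearts were below all vehicle hearts, the nearest being 12.8 and 15.2. The mean log2 ratio differed by -0.66 (SE 0.192), a fold of 0.631. The exact two-sided permutation test over the 20 labelings of the 6 hearts gave p = 0.1, the smallest that 3 against 3 allows. With the light chain ratio below, 2 ratios were tested, and the Benjamini-Hochberg adjusted value of this exact test was 0.2. The difference in log2 ratio lay between -0.80 and -0.51 with any 1 heart left out. It was -0.65 with all libraries thinned to the smallest total, which keeps the expected ratio within each heart.

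As a share of both heavy chain counts, *Myh7* made up 4.23% (95% Wilson interval 4.13 to 4.32), 5.33% (5.21 to 5.45) and 6.17% (6.03 to 6.30) in vehicle hearts. The shares in caffeine-treated hearts were 8.91% (8.70 to 9.12), 7.80% (7.65 to 7.95) and 7.27% (7.12 to 7.43). These intervals cover counting error only and are far narrower than the differences between hearts of 1 group. *Myh6* thus remained the main heavy chain in every heart, with at least 91.1% of the pair. The hearts with the lowest and highest shares, vehicle heart 1 and caffeine-treated heart 1, are also those with the highest and lowest *Myh6* levels.

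**Figure D2:**
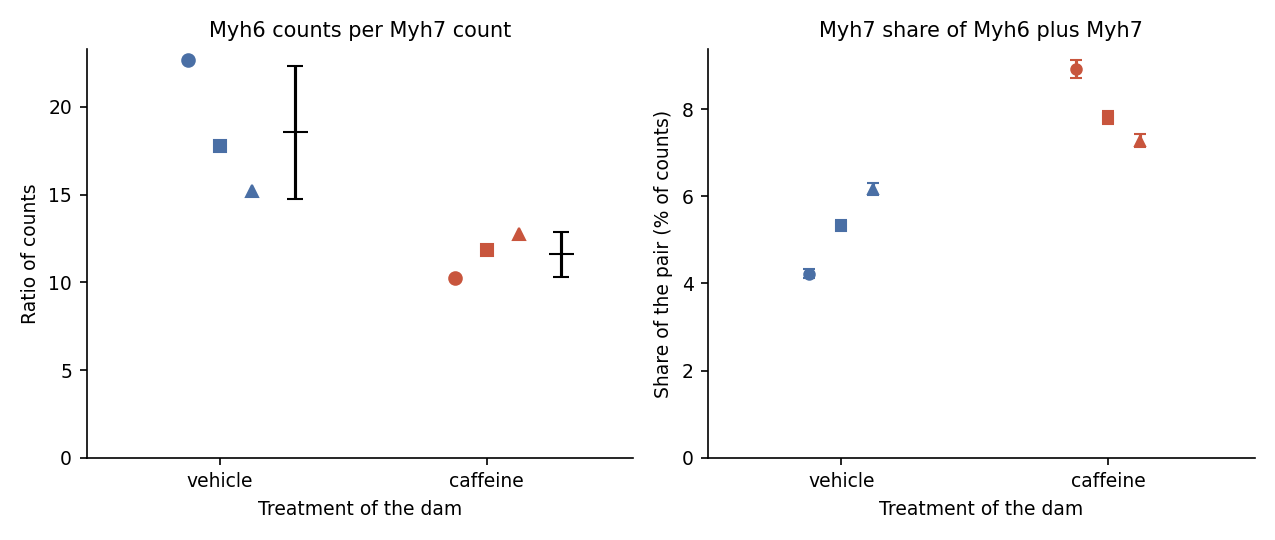
The left panel plots *Myh6* counts per *Myh7* count in each heart beside the group mean ± SD, and the right panel plots *Myh7* as a percent of the counts of both genes with 95% Wilson intervals. The caffeine-treated hearts lie at ratios of 10.2 to 12.8, all below the vehicle hearts at 15.2 to 22.7, and at shares of 7.27 to 8.91%, all above the vehicle hearts at 4.23 to 6.17%.

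The 2 heavy chain transcripts are much alike, which limits how reads can be assigned. Of the 75-base windows in the longest coding transcript of *Myh7*, 15.3% also occurred in *Myh6* exactly and 37.6% with up to 2 mismatches. For *Myh6* these shares in *Myh7* were 15.5% and 38.4%. *Myh7b* shared no window exactly with either and 0.213% with up to 2 mismatches. How reads that matched both genes were treated is not given in the sources used here, so the absolute ratios are uncertain, while the comparison between hearts rests on the same counting in all 6.

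*Myl2* (ENSMUSG00000013936, chr5:122100951-122113472) encodes the ventricular regulatory light chain, the substrate of *Mylk3*. Its level was 8497, 6773 and 7220 CPM in vehicle hearts and 8072, 7485 and 6747 CPM in caffeine-treated hearts. *Myl3* (ENSMUSG00000059741, chr9:110741861-110769798), the ventricular essential light chain, stood at 7554, 6632 and 7074 CPM against 7899, 7168 and 6352 CPM. The groups overlapped for both. The log2 fold change of *Myl2* was -0.01 (SE 0.113, 95% interval -0.26 to 0.24) and that of *Myl3* was 0.01 (SE 0.106, 95% interval -0.22 to 0.24), both with adjusted p = 0.988.

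The atrial light chains were near the limit of detection. *Myl4* (ENSMUSG00000061086, chr11:104550663-104595753), the atrial and fetal essential light chain, had 18, 13 and 15 counts in vehicle hearts and 5, 12 and 14 in caffeine-treated hearts. Caffeine-treated heart 1 was the lowest and the other 5 hearts overlapped. This gave a log2 fold change of -0.26 (SE 0.369, 95% interval -1.07 to 0.56, adjusted p = 0.898). *Myl7* (ENSMUSG00000020469, chr11:5896637-5898782), the atrial regulatory light chain, had 2, 0 and 0 counts in vehicle hearts and 1, 1 and 2 in caffeine-treated hearts. All of these are below the floor of 3 counts, so no fold and no *Myl7* to *Myl2* ratio were taken.

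*Myl4* made up 0.0232, 0.0185 and 0.0214% of the *Myl4* plus *Myl3* counts in vehicle hearts and 0.00884, 0.0189 and 0.0258% in caffeine-treated hearts. The lowest and the highest share both came from caffeine-treated hearts. The mean log2 ratio differed by -0.37 (SE 0.468), with p = 0.7 by the exact two-sided permutation test (0.7 adjusted over the 2 ratios). Without caffeine-treated heart 1 the difference was 0.073, in the other direction.

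*Mybpc3* (ENSMUSG00000002100, chr2:91118144-91136516) encodes cardiac myosin-binding protein C, which holds myosin heads near the thick filament. It stood at 4306, 3459 and 3768 CPM in vehicle hearts and at 3580, 4105 and 3837 CPM in caffeine-treated hearts. The groups overlapped and their means were 3844 and 3841 CPM. The 95% interval of the log2 fold change ran from -0.23 to 0.23 (adjusted p = 0.999).

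*Mylk3* (ENSMUSG00000031698, chr8:85324303-85386345) encodes cardiac myosin light chain kinase, which phosphorylates the ventricular regulatory light chain. Vehicle hearts held 545, 561 and 530 CPM and caffeine-treated hearts 429, 489 and 396 CPM. Every caffeine-treated heart was below every vehicle heart, and the vehicle hearts varied by only 2.79% (coefficient of variation). Its log2 fold change was -0.32 (SE 0.0934, 95% interval -0.52 to -0.11), a fold of 0.804, with adjusted p = 0.313. Leaving out single hearts gave values of -0.40 to -0.25.

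*Mylk4* (ENSMUSG00000044951, chr13:32700834-32783954) encodes a kinase of the same family with high expression in striated muscle. Its level was 179, 235 and 334 CPM in vehicle hearts and 105, 192 and 131 CPM in caffeine-treated hearts. Caffeine-treated heart 2 was above vehicle heart 1, so the groups overlapped, and hearts of the same treatment varied by 31.5% (vehicle) and 31.4% (caffeine). The log2 fold change was -0.80 (SE 0.236, 95% interval -1.32 to -0.28), a fold of 0.573, with adjusted p = 0.302. *Mylk4* is in the list of changed genes that the study drew up on these same samples, so its direction here is not independent evidence. Without vehicle heart 3 the log2 fold change was -0.54. With no filter on low counts it was -0.82 and passed the thresholds (adjusted p = 2.818e-12). That fit called 1.07% of all genes, against 0.107% in the main fit. The adjusted p of *Mylk4* was 0.647 by DESeq2, 0.0760 by edgeR's exact test and 0.0715 by its likelihood ratio test, with no call.

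**Figure D3:**
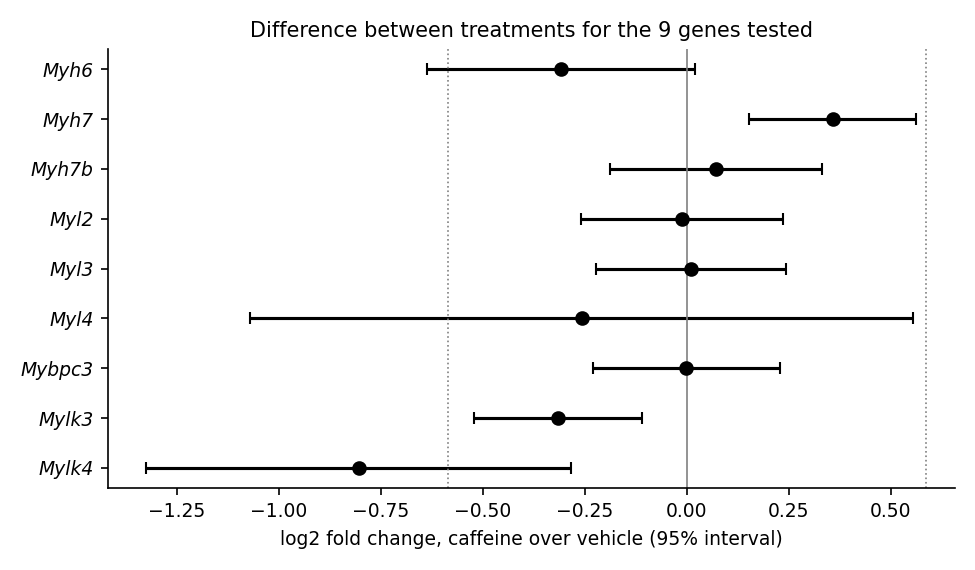
Log2 fold change of caffeine over vehicle with its 95% interval for the 9 tested genes, with dotted lines at a fold change of 1.5 in either direction. The intervals of *Myh7*, *Mylk3* and *Mylk4* leave out 0 before adjustment for the 13092 genes tested, and the intervals of *Myh7*, *Mylk3*, *Myl2*, *Myl3*, *Myh7b* and *Mybpc3* lie inside the dotted lines.

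The 9 log2 fold changes had a median of -0.01 and ran from -0.80 to 0.36. Over all 13092 genes the median was 0.000882 and the central 95% lay between -0.50 and 0.62. *Mylk4* was the only member outside that range.

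Levels of different genes were compared as CPM per kilobase of the longest protein-coding transcript. On this scale *Myl2* and *Myl3* led in both groups, at 8433 ± 1007 and 7563 ± 492 in vehicle hearts (SD, n = 3) and 8363 ± 747 and 7620 ± 826 in caffeine-treated hearts. The spread of these neighbours overlapped, although *Myl2* was above *Myl3* in all 6 hearts, by 1.08 to 1.19 times. *Myh6* followed at 2250 ± 379 and 1817 ± 304, then *Mybpc3* at 923 ± 103 and 923 ± 63.0. *Mylk4* stood at 44.7 ± 14.1 and 25.6 ± 8.02 and *Myh7b* at 4.70 ± 0.457 and 4.94 ± 0.449. *Myl4*, at 1.59 ± 0.280 and 1.30 ± 0.511, was the lowest above the floor.

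The order of *Mylk3* and *Myh7* was exchanged between the groups on the per-length scale. *Mylk3* was at 147, 152 and 144 CPM per kilobase in vehicle hearts, above *Myh7* at 116, 117 and 126. In caffeine-treated hearts *Mylk3* was at 116, 132 and 107, below *Myh7* at 141, 170 and 148. Each gene's difference is the one given above, and the exchange was not tested. Of the *Myh7* windows, 15.3% also occur in *Myh6* exactly, and how such reads were counted is not given. The level of *Myh7* relative to *Mylk3*, and so their order in either group, is therefore uncertain.

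The balance between chains was also set out within hearts. *Myh6* plus *Myh7* summed to 2792, 2241 and 2075 CPM per kilobase in vehicle hearts and 1614, 2219 and 2078 in caffeine-treated hearts. *Myl2* per heavy chain on the same scale was 3.42, 3.40 and 3.91 against 5.62, 3.79 and 3.65. Caffeine-treated heart 1 stood apart with the least heavy chain, and the other 5 hearts overlapped between the groups. The 10 genes together made up 3.74, 3.27 and 3.39% of all counts in vehicle hearts and 2.82, 3.21 and 3.03% in caffeine-treated hearts. *Myh6* alone made up 1.60, 1.35 and 1.28% against 0.846, 1.21 and 1.18%. In both shares, which use no TMM factors, every caffeine-treated heart was below every vehicle heart. With TMM factors the groups overlapped, both for the 10 genes together (31402 to 38195 CPM in vehicle and 30004 to 33060 CPM in caffeine-treated hearts) and for *Myh6*.

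The kinase genes did not move in step within hearts. *Mylk3* counts per *Mylk4* count were 3.05, 2.39 and 1.59 in vehicle hearts and 4.10, 2.55 and 3.04 in caffeine-treated hearts, which overlapped.

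Caffeine-treated heart 1 recurred as the lowest heart for several of these genes. It had the fewest counts of all, 7613011, and the lowest levels of *Myh6*, *Myl4* and *Mylk4*. Thinning every library to that total left the log2 fold change of *Myh6* at -0.31, that of *Myh7* at 0.35 and that of *Mylk4* at -0.79. Thinning keeps each gene's expected share of its library, so little movement of these values was fixed in advance. The part of depth in the low levels of this heart was not tested.

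The heavy chain genes carry microRNAs in their introns. *Mir208a* lies in intron 29 of 38 of *Myh6*, *Mir208b* in intron 31 of 40 of *Myh7* and *Mir499* in intron 19 of 41 of *Myh7b*, each on the strand of its host. Their mature products are shown because they tie the 3 heavy chain genes into 1 family. The RefSeq sequences (GRCm38.p6) are given 5′ to 3′ with the seed, bases 2 to 8, in capitals, and lie at chr14:54949072-54949093, chr14:54975710-54975731 (both minus strand) and chr2:155622893-155622913 (plus strand).
miR-208a-3p: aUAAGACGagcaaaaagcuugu
miR-208b-3p: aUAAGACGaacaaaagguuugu
miR-499-5p: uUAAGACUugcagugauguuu

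The products of *Mir208a* and *Mir208b* share the seed UAAGACG and differ at 3 of 22 bases, all outside it. The seed of miR-499-5p is UAAGACU and differs from theirs at 1 base. Mature microRNAs are not measured in poly(A) libraries of this kind, so counts on these genes are of longer RNA over the hairpin.

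*Mir208b* had 32, 28 and 23 counts in vehicle hearts and 4, 14 and 17 in caffeine-treated hearts, all caffeine-treated hearts being lower. A log2 fold change of -0.93 (SE 0.378, adjusted p = 0.512) was obtained, and -0.60 without caffeine-treated heart 1. The direction was opposite to that of its host *Myh7* in the same hearts. Per 1000 *Myh7* counts, *Mir208b* had 4.32, 3.62 and 2.97 counts in vehicle hearts and 0.635, 1.49 and 2.15 in caffeine-treated hearts. The 77-base hairpin has no base in an exon of *Myh7*, and its reads cannot be told apart from those of unspliced *Myh7* RNA. *Mir208a* had 1 count in 1 vehicle heart and none elsewhere, and *Mir499* had 0 counts in all 6.

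*Mhrt*, a long non-coding RNA transcribed antisense to *Myh7*, stood at 13.7, 14.5 and 14.7 CPM in vehicle hearts and 7.96, 14.5 and 10.3 CPM in caffeine-treated hearts. Caffeine-treated heart 2 lay within the vehicle range and the other 2 were lower. The log2 fold change was -0.37 (SE 0.192, adjusted p = 0.632), and without caffeine-treated heart 1 it was -0.20 and without caffeine-treated heart 2 it was -0.63. Per 1000 *Myh7* counts it was 18.9, 19.8 and 18.7 in vehicle hearts and 9.04, 13.7 and 11.1 in caffeine-treated hearts, with no overlap. That ratio also carries the difference of *Myh7*, which was higher in every caffeine-treated heart. The exons of *Mhrt* overlap those of *Myh7* over 484 bases, 39.9% of *Mhrt* and 5.62% of *Myh7*. The library kit does not mark strand, so reads in that stretch cannot be assigned to either gene with certainty.

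**Figure D4:**
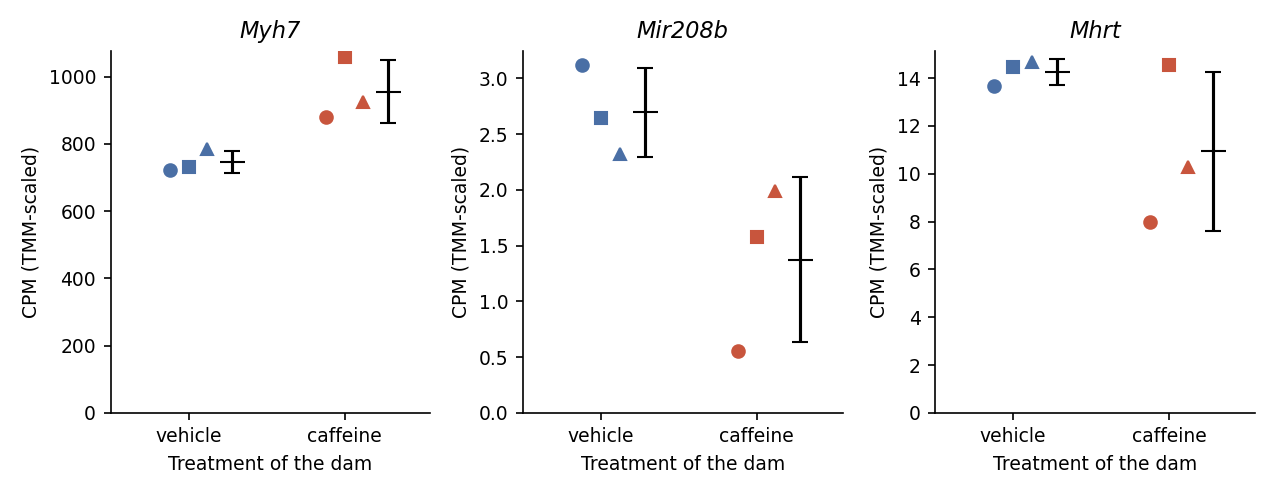
TMM-scaled CPM of *Myh7*, its intronic microRNA gene *Mir208b* and its antisense RNA *Mhrt* in each heart, with group mean ± SD. *Myh7* is higher in all caffeine-treated hearts (881 to 1060 against 722 to 783 CPM), *Mir208b* is lower in all of them (0.559 to 1.99 against 2.33 to 3.12 CPM), and *Mhrt* overlaps between the groups.

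Beyond these genes, 66 further genes were listed by role in the myosin pathway, and 51 of them were tested. None was called. An unadjusted p below 0.05 was reached by 7 of the 51, all lower after caffeine, against 4.4% of all genes tested in that direction. Estimates were above 0 for 12 and below 0 for 39, with a median of -0.10, while all genes had 6566 above and 6526 below 0. Groups did not overlap for 12 lower and 1 higher gene, against 7.12% and 7.11% of all genes tested.

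Most other muscle heavy chains were almost silent. The adult and developmental skeletal chains *Myh1*, *Myh2*, *Myh3*, *Myh4*, *Myh8*, *Myh13* and *Myh15* had at most 2 counts in any heart. *Myh14*, which encodes a non-muscle heavy chain, was listed with them and was the only tested gene of that list. It stood at 101 to 135 CPM in vehicle hearts and 86.6 to 110 CPM in caffeine-treated hearts, with a log2 fold change of -0.23 (adjusted p = 0.649). All 3 genes in the list of other non-muscle and smooth muscle heavy chains were tested, none with an unadjusted p below 0.05. The other myosin light chains had 6 of 8 genes tested, none below that p, with 4 estimates above 0 and 2 below.

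Of the other thick filament and M-band proteins, 6 of 9 were tested and 5 estimates were below 0. *Ttn*, which encodes the giant spring titin that spans from the Z-disc to the M-band, stood at 9077, 10104 and 8574 CPM in vehicle hearts and 6516, 7920 and 7106 CPM in caffeine-treated hearts. All caffeine-treated hearts were lower, with a log2 fold change of -0.37 (SE 0.107, adjusted p = 0.302). The list's summed level was 10108 to 11937 CPM after caffeine and 12448 to 14002 CPM after vehicle.

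The other light chain kinases and the myosin phosphatase subunits had 8 of 9 genes tested and 6 estimates below 0. Groups did not overlap for 4 lower and 1 higher gene, against 7.12% and 7.11% of all genes tested. The 7 chaperones and turnover factors of myosin, all tested, had estimates from -0.18 to 0.29 and none had an unadjusted p below 0.05.

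All 18 transcription factors and cofactors listed for the heavy chain genes were tested, with 15 estimates below 0. The 4 with an unadjusted p below 0.05 were all lower after caffeine, against 4.4% of all genes tested in that direction. Groups did not overlap for 5 of the 18, these 4 included, all lower, against 7.12% of all genes tested. *Tbx5*, a T-box factor of the developing and adult heart, was at 31.8, 39.4 and 30.6 CPM in vehicle hearts and 22.8, 22.6 and 25.05 CPM in caffeine-treated hearts. Its log2 fold change was -0.53 (SE 0.125, adjusted p = 0.193). *Sox6*, a repressor of slow muscle genes, was at 14.3, 23.0 and 16.6 against 13.3, 9.80 and 13.8 CPM, a log2 fold change of -0.55 (SE 0.198, adjusted p = 0.413). The remaining pair encode nuclear receptors known to act together on the heavy chain genes. The thyroid hormone receptor gene *Thrb* had a log2 fold change of -0.31 (SE 0.121, adjusted p = 0.488) and its partner *Rxra* one of -0.26 (SE 0.0927, adjusted p = 0.407).

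**Figure D5:**
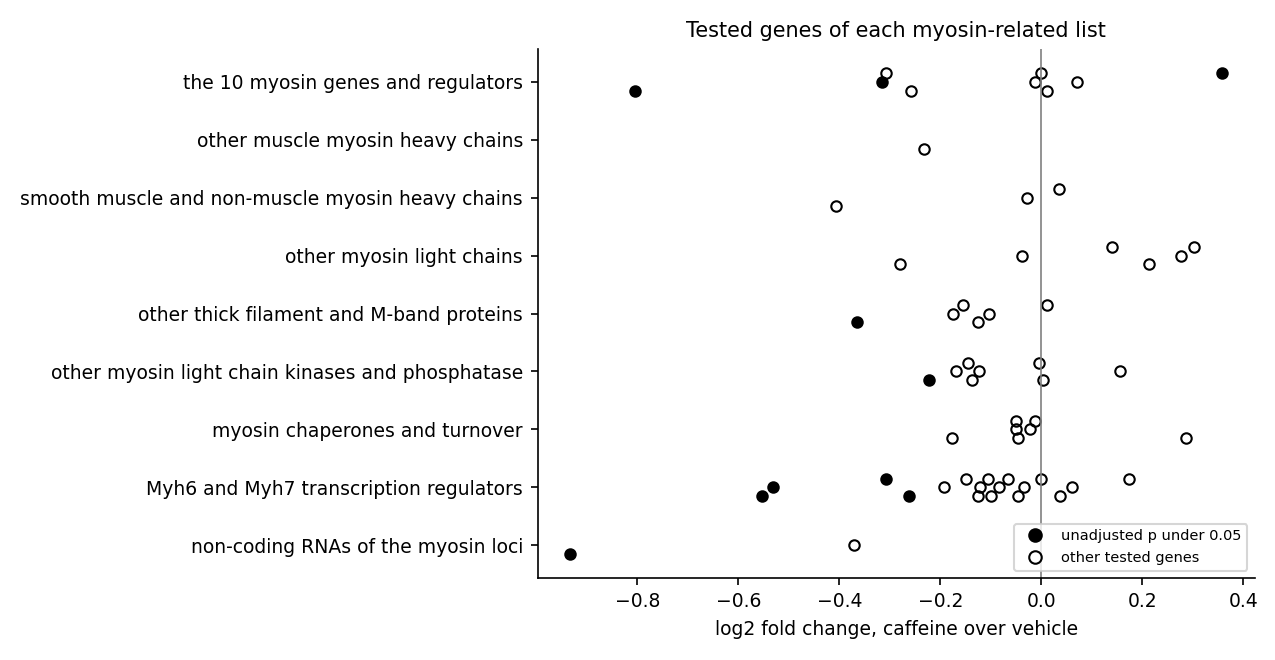
Log2 fold change of caffeine over vehicle for each tested gene of the 10 myosin genes and of the myosin-related lists, 1 row a list, with filled points at an unadjusted p below 0.05 and vertical offsets only to separate points. Of the 51 listed pathway genes, 7 are filled and all 7 lie below 0, and *Myh7* is the filled point above 0 in the top row.

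Genes regulated with *Myh7* in stressed ventricles give a scale for its difference. *Nppb*, encoding brain natriuretic peptide, was at 157, 151 and 236 CPM in vehicle hearts and 778, 671 and 607 CPM in caffeine-treated hearts, a log2 fold change of 1.92 (SE 0.165, adjusted p = 0.00228). *Acta1*, the skeletal alpha-actin gene, was at 954, 760 and 1108 against 2534, 3142 and 2451 CPM, a log2 fold change of 1.53 (SE 0.144, adjusted p = 0.00296). Both rose past the thresholds. *Nppa* was at 51.2, 90.0 and 180 against 266, 369 and 432 CPM, with a log2 fold change of 1.73 (SE 0.351, adjusted p = 0.125). The *Myh7* value of 0.36 was smaller than each of these, and the differences between genes were not tested. The list of changed genes that the study drew up on these same samples holds *Nppb* and *Acta1*. Their direction and size here are therefore not independent evidence.

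Genes with the most similar profile were found by Pearson's r of log2 CPM over the 6 hearts among 13083 other genes, as a description. For *Myh7* they were *Eif3j1* (r = 0.990), *Parp9* (r = 0.989) and *Nicn1* (r = 0.986). For *Mylk4* they were *Dhx15* (r = 0.994), *Zfp24* (r = 0.992) and *Gm8806* (r = 0.992). With 6 points that also share depth and treatment, 127 genes reached r above 0.9 with *Myh7* and 157 with *Mylk4*.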

How the data were processed

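The authors selected poly(A) RNA from left ventricles, prepared libraries with a kit that does not mark strand, cleaned reads with FastQC and mapped them to mm10 (GRCm38) with TopHat2. Genes were those of Ensembl release 79, counted with HTSeq. Raw counts were deposited, with no scaling by the authors. The strand setting and the treatment of reads with several matches are not given in the sources used here. Groups came from the labels, 3 hearts each.

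Counts were filtered with filterByExpr (minimum count 10, minimum total 15), normalized by TMM and fitted with edgeR 4.0.16 (glmQLFit, glmQLFTest, treatment as the only term, common dispersion 0.0145) in R 4.3.3. Replicates differed by more than sampling noise (chi-square per degree of freedom 5.71 to 15.1), so each library was counted once. Ratios per heart were compared by exact permutation. Alternatives used DESeq2 1.42.0, limma 3.58.1, and figures and ratios used Python 3.11.15 with SciPy 1.17.1, Matplotlib 3.10.9, NumPy 2.4.6 and pandas 2.3.3. The fit was tested on simulated data.

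Positions and transcript lengths came from GENCODE M21 on GRCm38, matched by Ensembl identifier, and 1167 of 43629 identifiers had no symbol there. All 126 listed symbols were found. The myosin genes, the lists and the tests were chosen with earlier results of these data known. The genes named are the 10 members, up to 5 genes of each pathway list with the smallest unadjusted p below 0.05 and any called, the RNAs of the heavy chain loci, the 3 genes most similar to *Myh7* and to *Mylk4*, the stress genes *Nppa*, *Nppb* and *Acta1*, and the highest gene of each marker list. Of these, 1 pathway gene is not reported here. The skeletal heavy chains, *Myh14* and the markers *Sln*, *Mybphl*, *Bmp10*, *Nr2f2*, *Kcnj3*, *Kcna5*, *Cntn2*, *Hcn4*, *Adgre1*, *Adipoq*, *Plin1* and *Cidec* were named after their values were seen.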

Additional observations from a re-analysis of the deposited data

How the results depend on the processing

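The 10 myosin genes had no gene past the thresholds under 18 of 19 alternatives to edgeR's quasi-likelihood test, and with no filter on low counts they had 1, *Mylk4*. The listed pathway genes had 0 under all 19. Of the named genes of both sets, some had an adjusted p below 0.05 but missed the fold threshold. They were *Myh7* by DESeq2 (0.0473), *Tbx5* by the exact (0.0369) and likelihood ratio (0.0365) tests, and, with no filter, *Myh6* (0.0496), *Myh7* (0.0430), *Mylk3* (0.0493), *Tbx5* (0.0041), *Sox6* (0.0224) and *Ttn* (0.0082). The cause was not tested. Over all genes, 14 passed in the design as reported, 95 by edgeR's exact test, 101 by its likelihood ratio test, 67 by DESeq2, 27 by library size only and 240 with no filter. Leaving out single hearts gave 4 to 28, namely 27 without vehicle heart 1, 4 without vehicle heart 2, 28 without vehicle heart 3, 8 without caffeine-treated heart 1, 22 without heart 2 and 4 without heart 3. Scaling by library size only moved the median of all genes to -0.08 and the share of calls that were higher from 78.6% to 44.4%. With no filter that share was 60.4%.

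Hearts with the same replicate number did not deviate together (r = 0.045, -0.030 and -0.038), so the main fit did not pair them. These values cannot exclude a pairing. With a replicate block 40 genes passed, none of them a member. The *Myh6* to *Myh7* difference was -0.66 in such pairs, with the caffeine-treated heart lower in each. The exact two-sided sign-flip test gave p = 0.25, the smallest that 3 pairs allow.

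Values near 0 changed sign. *Myh7b* was -0.013 and *Myl3* -0.076 by library size only, and *Myl3* was -0.011 with no filter. *Mybpc3* was 0.00065 by DESeq2 and by its size factors (0.0006541 and 0.0006474), 0.0024 by limma-voom, 0.0041 with 10 counts in every sample, 0.0025 with the replicate block and 0.0034 after thinning. Without single hearts *Myl2* ran from -0.080 to 0.087, *Myl3* from -0.068 to 0.090, *Mybpc3* from -0.072 to 0.088, *Smtn* from -0.25 to 0.047 and *Cdh5* from -0.13 to 0.065. *Cdh5* was also 0.0070 by limma-voom, 0.0026 with 10 counts in every sample and 0.0050 with the replicate block. The *Myl4* to *Myl3* difference ran from -0.70 to 0.073. The *Myh6* to *Myh7* difference ran from -0.80 to -0.51. Of 660 alternative values for 35 single genes, 615 kept direction and side of the threshold. Of the rest, 24 changed sign and 21 newly passed, 1 for *Mylk4*, 5 for *Nppa*, 8 for *Cntn2* and 7 for *Hcn4*. Adjusted p ran from 3.74e-21 to 0.192 for *Cntn2* and from 2.61e-07 to 0.320 for *Hcn4*. No value was obtained for the *Myl7* to *Myl2* ratio, for *Myl4* with 10 counts in every sample, for *Mir208b* and *Cntn2* with 10 counts in every sample, or for *Ttn* and *Actc1* when the 10 genes with the highest counts were left out. Depth limits *Myl4*, *Myl7* and the RNAs of the heavy chain loci.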
